A study of Mus musculus with 18 samples.

Results

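The 39 protein-coding Hox genes of the mouse were followed in RNA from the descending aorta of 18 male C57BL/6 mice. They were taken by symbol, with no measured value used, as every protein-coding gene of the Hoxa, Hoxb, Hoxc and Hoxd clusters, and they make up 39 of the 54281 genes in the deposited count table. Earlier results of these data were known when the Hox genes were chosen as the subject. A group of 6 mice carried the progeria mutation LMNAG609G (HGPS, 64 to 75 d old), 6 wild-type mice were 2 months old (2-mo WT, 5 at 62 d and replicate 6 at 95 d), and 6 wild-type mice were 24 months old (24-mo WT, 609 to 762 d). The mutation is a knock-in at the endogenous Lmna locus, so progerin, the truncated lamin A of Hutchinson–Gilford progeria syndrome, is made in every cell type that makes lamin A, and, per the study's methods, wild-type mice were purchased. Gene counts do not show the point mutation, so the genotype was not checked here. Each library came from the whole vessel of 1 mouse between the end of the arch and the diaphragm, perfused with PBS and cleaned, and held intima, media and adventitia together. Ribosomal RNA was depleted and the rest sequenced as a stranded paired-end library, which gave 12413229 to 30844775 estimated counts per mouse (17838351 to 30844775 in HGPS, 12413229 to 21016752 in 2-mo WT and 13622602 to 19871697 in 24-mo WT).

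Hox genes encode homeodomain transcription factors that give cells a position along the head-to-tail axis of the embryo. They lie in 4 clusters, numbered so that low paralog groups sit at the end of a cluster that is switched on early and far forward, and high groups at the end that is switched on late and toward the tail. Many adult connective tissue and smooth muscle cells keep the combination of Hox genes that was set in the embryo, which is why a Hox profile is read as a record of where along the body a vessel wall came from. The proteins bind DNA together with cofactors of the TALE homeodomain class, and their genes are kept on or off by Trithorax and Polycomb proteins and are activated early by retinoic acid.

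In GRCm38 the Hoxa cluster (11 genes) runs on the minus strand of chr6:52155590-52260880, Hoxb (10 genes) on the plus strand of chr11:96194316-96368256, Hoxc (9 genes) on the plus strand of chr15:102921103-103036852 and Hoxd (9 genes) on the plus strand of chr2:74668310-74765142. The genes share their homeobox, the coding exon stretch for the DNA-binding domain, so sequence likeness bears on how well reads can be assigned to one gene. The 30 bases that code for the core of the recognition helix, the part of the homeodomain that lies in the major groove of DNA, are shown for 7 of the genes the comparisons turn on. They are in coding exons of the GENCODE M21 transcripts on GRCm38, 5′ to 3′ on the strand of the gene, and capitals mark a base unlike the most common base at that position among the 22 Hox genes that could be tested.
Hoxa2 (minus strand, chr6:52163426-52163455): aaAGtGtggttTcagaaccggAgAatgaag
Hoxa6 (minus strand, chr6:52206440-52206469): aagatctggttccagaaTcggcgcatgaag
Hoxa7 (minus strand, chr6:52215858-52215887): aagatctggttccagaaTcggcgcatgaag
Hoxb4 (plus strand, chr11:96320191-96320220): aagatctggttccagaaTcggcgcatgaag
Hoxb6 (plus strand, chr11:96300824-96300853): aagatTtggttTcagaaccggcgcatgaag
Hoxb7 (plus strand, chr11:96289520-96289549): aagatctggttTcagaaccggcgcatgaag
Hoxb8 (plus strand, chr11:96284309-96284338): aaAatctggttccagaaTcggAgAatgaag

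Among the 22 genes, 19 of the 30 positions held the same base throughout, and a window differed from the most common bases at 1 to 7 positions, with a median of 3. Hoxa6, Hoxa7 and Hoxb4 had the same window letter for letter. Over whole transcripts the likeness was small: in 18 of the 22 genes under 2% of all stretches of 31 bases occurred in any other gene. The exceptions were Hoxa2 (13.7%) and Hoxa3 (8.24%), which share exons with the read-through gene Gm28308 (23 counts in all 18 mice together), Hoxc5 (4.55%, with Hoxc10) and Hoxa6 (3.32%, with Hoxb4). Antisense transcripts overlap some members on the opposite strand: Hoxb3os covers 52.9% of the exon length of Hoxb3 and 27.3% of that of Hoxb2, and Hoxaas3 covers 20.4% of that of Hoxa7. Hoxaas2 covers 8.4% of that of Hoxa3. Over all mice these antisense genes had 222 counts (Hoxb3os), 252 (Hoxaas3) and 675 (Hoxaas2). The library kit keeps the strand, but whether the strand was used in counting is not given in the sources used here, so an exchange of reads between such pairs cannot be told apart from expression.

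The aorta expressed an anterior-to-middle set of Hox genes and almost none of the posterior ones. Counts were found for 33 of the 39 genes, 22 genes had at least 10 counts in at least 6 mice and were tested, and 17 were not. The highest paralog group tested in each cluster was Hoxa10, Hoxb9, Hoxc8 and Hoxd8, and Hoxd8 was the only gene of its cluster to be tested. Of the 9 genes of groups 11 to 13 none reached more than 2 counts in any mouse, and they had 13 counts between them in all 18 libraries. Hoxb1, Hoxc11, Hoxc12, Hoxd1, Hoxd11 and Hoxd12 were at 0 in every mouse, which allows a level of up to 0.00867 CPM (counts scaled to the same library size in every mouse), or 3 counts in the 346024292 of all libraries. Between these extremes lay 11 genes with 1 to 100 counts in all mice together, led by Hoxd4 (84), Hoxd9 (56) and Hoxc9 (31) and followed by Hoxc10 (6), Hoxa11, Hoxa13 and Hoxd10 (4 each), Hoxc13 (3), Hoxd3 (2), and Hoxb13 and Hoxd13 (1 each). Hoxd3 and Hoxd4 share 61.12% and 49.06% of their 31-base stretches with the read-through gene Gm28230, so their low counts are uncertain. This limit covers counting error only. A single mouse showed 21 to 22 Hox genes with at least 10 counts in HGPS, 21 to 23 in 2-mo WT and 20 to 22 in 24-mo WT, so the number of expressed paralogs overlapped among the groups. After every library was thinned to the size of the smallest, the numbers were 19 to 21, 20 to 22 and 20 to 21.

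**Figure D1:**
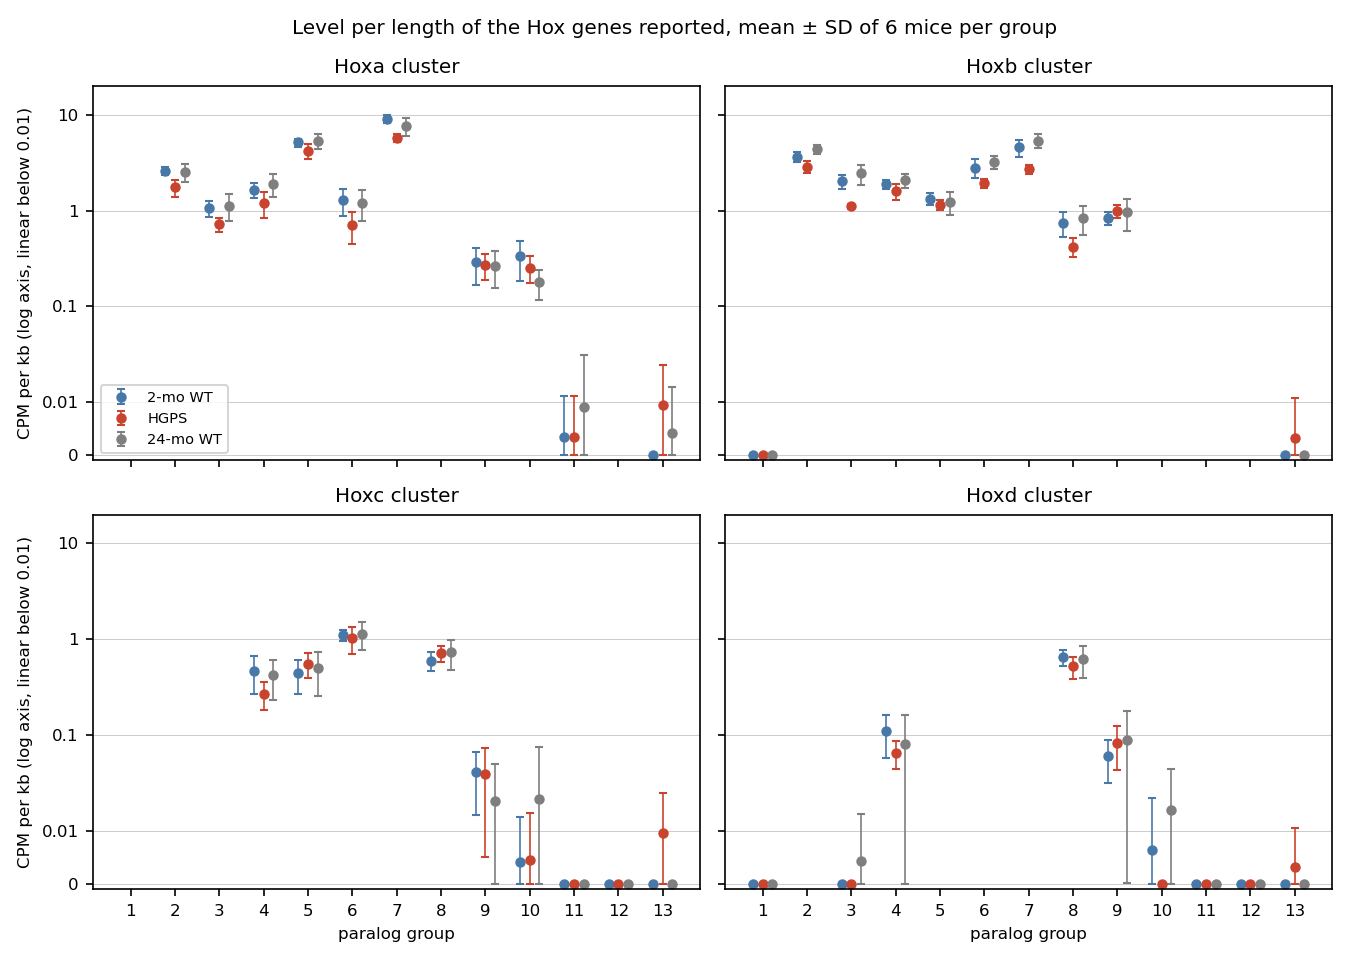
Level of the Hox genes reported in CPM per kb of exon length (mean with SD over 6 mice, logarithmic axis that is linear below 0.01) against paralog group, in a panel for each cluster and a colour for each group of mice. Levels are highest at groups 2 to 7 of Hoxa and Hoxb, and the genes of groups 11 to 13 lie at or near 0 in all 4 clusters.

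Levels can be set side by side between genes only per length, and are given here as CPM per kb of exon length, averaged over all 18 mice with the SD between mice. Hoxa7 was highest at 7.47 ± 1.78, followed by Hoxa5 at 4.88 ± 0.868, Hoxb7 at 4.21 ± 1.35, Hoxb2 at 3.63 ± 0.762 and Hoxb6 at 2.64 ± 0.707. Hoxa7 stood apart from the next gene by more than its SD, while Hoxa5 and Hoxb7, and Hoxb7 and Hoxb2, differed by less than the SD of either. Below them came Hoxa2 (2.28), Hoxb3 (1.86), Hoxb4 (1.84), Hoxa4 (1.58), Hoxb5 (1.24), Hoxc6 (1.09) and Hoxa6 (1.06), in which neighbours lay close together. Hoxa3 (0.965), Hoxb9 (0.925), Hoxc8 (0.679), Hoxb8 (0.666), Hoxd8 (0.596), Hoxc5 (0.497) and Hoxc4 (0.386) were lower, and Hoxa9 (0.273) and Hoxa10 (0.255) closed the list of tested genes. The order below Hoxa7 depended on the length used: per kb of the longest coding transcript Hoxa7 was still highest (10.7), but Hoxb2 (7.78) came next, then Hoxb7 (5.03) and Hoxa5 (4.88), and Hoxa3 moved from rank 13 to rank 8 at 2.24. Close neighbours also changed places between groups of mice, by less than the SD of either gene. Hoxb2 (2.86 ± 0.403) lay above Hoxb7 (2.69 ± 0.303) in HGPS and Hoxb7 (5.38 ± 0.847) above Hoxa5 (5.31 ± 0.969) in 24-mo WT, each by exon length. All of these are modest levels for this tissue: the median over the 15210 tested genes was 3.73 CPM per kb, Hoxa7 lay at percentile 67.8 and Hoxa10 at percentile 8.26.

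Most of the Hox level came from the Hoxa and Hoxb clusters and from the middle paralog groups. Summed per kb over all Hox genes, Hoxa made up 48.8% and Hoxb 42.4% on average over the 18 mice, against 6.92% for Hoxc and 1.95% for Hoxd, and the share of Hoxa and Hoxb together ran from 86.4% to 94.3% between mice. Paralog groups 4 to 8 held 72.3%, groups 1 to 3 held 23.5% and groups 9 to 13 held 4.12%. Paralog group 7 alone, which is Hoxa7 and Hoxb7 in the mouse, held 28.9%. Its share was 24.3% to 29.2% in HGPS mice, 28.9% to 33.9% in 2-mo WT and 25.2% to 33.4% in 24-mo WT, so that HGPS and 2-mo WT overlapped only slightly. The share of groups 9 to 13 was 3.94% to 6.59% in HGPS, 2.41% to 4.59% in 2-mo WT and 2.28% to 5.79% in 24-mo WT, ranges that overlapped. The mean paralog group weighted by level was 5.17 to 5.43 (median 5.26) in HGPS, 5.16 to 5.38 (median 5.3) in 2-mo WT and 5.03 to 5.55 (median 5.15) in 24-mo WT, so the centre of the profile lay just past paralog group 5 in every mouse.

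The first comparison sets HGPS against 2-mo WT at a like age. The study's methods name purchased wild-type mice and a mutant line from another laboratory, and no littermate controls. Genotype and source of the mice therefore cannot be told apart. The summed Hox level was lower in HGPS, with 76.1 to 85.6 CPM (median 80) in the 6 HGPS mice against 99.4 to 128 (median 110) in 2-mo WT, and no mouse of one group reached the other. The 24-mo WT mice had 95.6 to 122 CPM (median 116). Hoxa and Hoxb held most of the Hox level, so a difference in the sum falls mainly on them. Hoxa summed to 33.8 to 41 CPM in HGPS and 47.6 to 63.5 in 2-mo WT, and Hoxb to 32 to 38.3 and 42.4 to 53.2, again without overlap. Hoxc (5.14 to 8.75 against 5.29 to 8.49 CPM) and Hoxd (1.09 to 2.24 against 1.66 to 2.89) overlapped widely. In bulk RNA, fewer cells of a kind and less RNA per cell cannot be told apart.

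**Figure D2:**
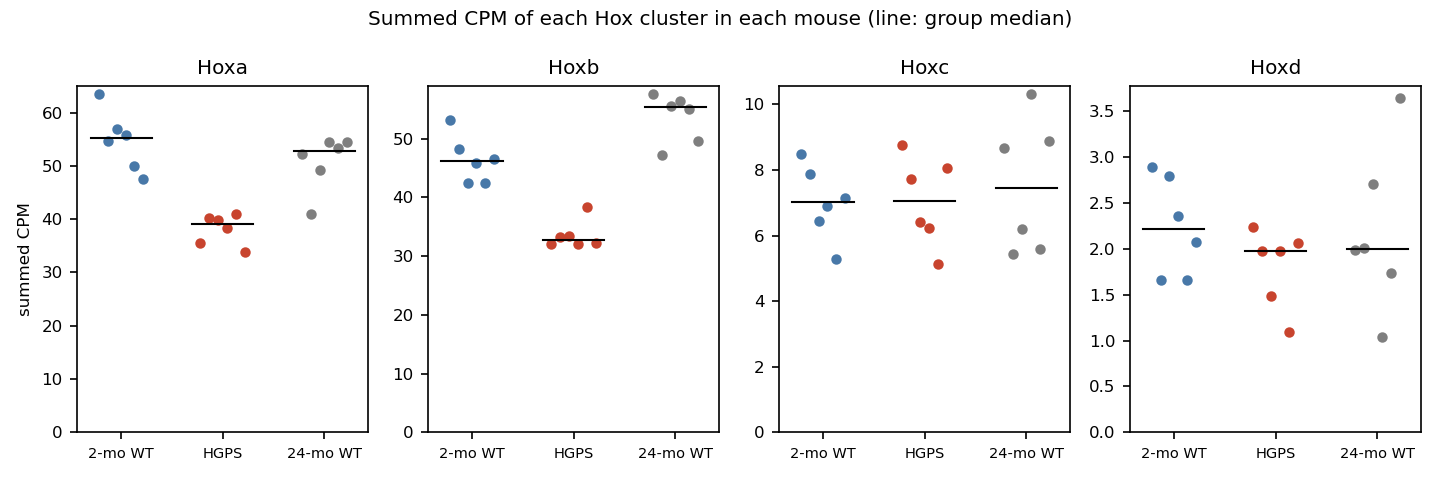
Summed level of each Hox cluster in CPM for every mouse (points) with the median of the 6 mice of a group (line). For Hoxa and Hoxb all HGPS mice lie below all 2-mo WT mice, while for Hoxc and Hoxd the 3 groups of mice overlap.

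Gene by gene, 9 of the 22 tested Hox genes were lower in HGPS than in 2-mo WT and none was higher, by edgeR's quasi-likelihood test (threshold 0.05 after Benjamini-Hochberg adjustment over every gene tested). The share of Hox genes called was 40.9%, against 43.2% of all 15210 genes in either direction, a share near that background. In the lower direction the background was 21.2%, and in the higher direction 22%. The log2 fold change was below 0 for 19 of the 22, with a median of −0.38, where the median of all tested genes was 0.00. Of the 22, 19 had at least 10 counts in every one of the 18 mice, and Hoxa6 (16 mice), Hoxc4 (15) and Hoxa10 (12) did not. By cluster the calls were 4 of 9 in Hoxa (median −0.44), 5 of 8 in Hoxb (median −0.45), 0 of 4 in Hoxc (median 0.07) and 0 of 1 in Hoxd. By paralog group they were 4 of 5 in groups 1 to 3, 5 of 14 in groups 4 to 8 and 0 of 3 in groups 9 to 13. Across the 22 genes the fold change had little relation to paralog group (Spearman's rho 0.13, a description over genes that share libraries), and no trend along the clusters was read from it. For 5 genes (Hoxa2, Hoxa7, Hoxb3, Hoxb7 and Hoxb8) every HGPS mouse lay below every 2-mo WT mouse, which 10.9% of all tested genes did.

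Hoxb3, a gene of the hindbrain and branchial region in the embryo, had the most significant difference. It was at 4.34, 4.71 and 5.16 CPM (lowest, median and highest mouse) in HGPS and at 6.36, 8.86 and 10.2 CPM in 2-mo WT. The groups did not overlap, and the log2 fold change was −0.86 (SE 0.14, 95% interval −1.16 to −0.57, adjusted p = 9.96e-05), a level of 0.55 times that of 2-mo WT. Hoxb7 was at 3.69, 4.05 and 5.05 CPM in HGPS and at 5.67, 6.88 and 9.41 CPM in 2-mo WT. It too was separate between the groups, with a log2 fold change of −0.76 (SE 0.14, adjusted p = 0.000248). Hoxb8, its neighbour toward the posterior end, was at 0.742, 1.18 and 1.4 CPM against 1.42, 1.74 and 2.86 CPM, a log2 fold change of −0.82 (SE 0.25, adjusted p = 0.0136) in which the highest HGPS mouse and the lowest 2-mo WT mouse nearly touched.

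Hoxb6 and Hoxb2 fell by less. Hoxb6 was at 3.15, 3.79 and 4.31 CPM in HGPS and at 3.42, 5.52 and 7.23 CPM in 2-mo WT, so that the groups overlapped, and its log2 fold change was −0.55 (SE 0.15, adjusted p = 0.00582). Hoxb2, which acts in the hindbrain and neural crest of the embryo, was at 8.52, 9.73 and 12.4 CPM against 10.2, 12.8 and 14.8 CPM, with a log2 fold change of −0.35 (SE 0.10, adjusted p = 0.0112). The other genes of the cluster did not pass the test: Hoxb4 had medians of 3.92 CPM in HGPS and 5.03 in 2-mo WT (log2 fold change −0.24, adjusted p = 0.182), Hoxb5 3.13 and 3.76 (−0.20, adjusted p = 0.349), and Hoxb9, the most posterior Hoxb gene tested, 2.62 and 2.03 (0.23, adjusted p = 0.398).

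In the Hoxa cluster the clearest difference was in Hoxa7, the Hox gene with the highest level per kb. It was at 14.8, 16.1 and 19 CPM in HGPS and at 22.9, 26.4 and 30 CPM in 2-mo WT, with no overlap. The log2 fold change was −0.67 (SE 0.12, 95% interval −0.91 to −0.43, adjusted p = 0.000152), or 0.628 times the 2-mo WT level. Hoxa2, which with Hoxb2 belongs to the most anterior paralog group that passed, was at 2.11, 3.3 and 3.68 CPM against 4.06, 4.55 and 5.1 CPM, again separate, with a log2 fold change of −0.57 (SE 0.16, adjusted p = 0.00862). Hoxa3, which patterns the pharyngeal arches and their arteries, was at 3.62, 4.3 and 5.57 CPM against 4.18, 6.76 and 7.82 CPM (log2 fold change −0.55, SE 0.18, adjusted p = 0.0202), and Hoxa6 at 0.325, 0.62 and 0.882 CPM against 0.629, 1.1 and 1.54 CPM (−0.86, SE 0.30, adjusted p = 0.0268). In both of these genes the groups overlapped. The Hoxa6 call was lost in 4 of the 12 refits that left out 1 mouse of either group (without HGPS replicate 3 or 4 or 2-mo WT replicate 1 or 4, adjusted p = 0.0581 to 0.0644), and the other 8 calls held in all 12.

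Other genes of the Hoxa cluster did not pass. Hoxa5 had medians of 8.18 CPM in HGPS and 9.86 in 2-mo WT (log2 fold change −0.29, adjusted p = 0.0832), and Hoxa4 had 1.87 and 2.61 (−0.44, adjusted p = 0.107). Hoxa9 (1.45 and 1.61 CPM, log2 fold change −0.12) and Hoxa10 (0.778 and 1.09, −0.42) had adjusted p-values of 0.798 and 0.31. In the Hoxc cluster the medians were 0.783 and 1.32 CPM for Hoxc4 (log2 fold change −0.78, adjusted p = 0.0944), 1.61 and 1.42 for Hoxc5 (0.34, adjusted p = 0.429), 2.38 and 2.7 for Hoxc6 (−0.11, adjusted p = 0.742) and 2.07 and 1.64 for Hoxc8 (0.25, adjusted p = 0.41). Hoxd8 had 1.6 and 1.83 CPM (−0.31, adjusted p = 0.347). The 95% intervals were −1.55 to −0.01 for Hoxc4, −0.34 to 1.02 for Hoxc5, −0.62 to 0.39 for Hoxc6, −0.23 to 0.72 for Hoxc8 and −0.85 to 0.22 for Hoxd8. They are wide, so the lack of calls in Hoxc and Hoxd does not show unchanged levels. Without 2-mo WT replicate 5, Hoxc4 passed as well (log2 fold change −0.98, adjusted p = 0.0269), the only Hox gene gained by leaving out a mouse.

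**Figure D3:**
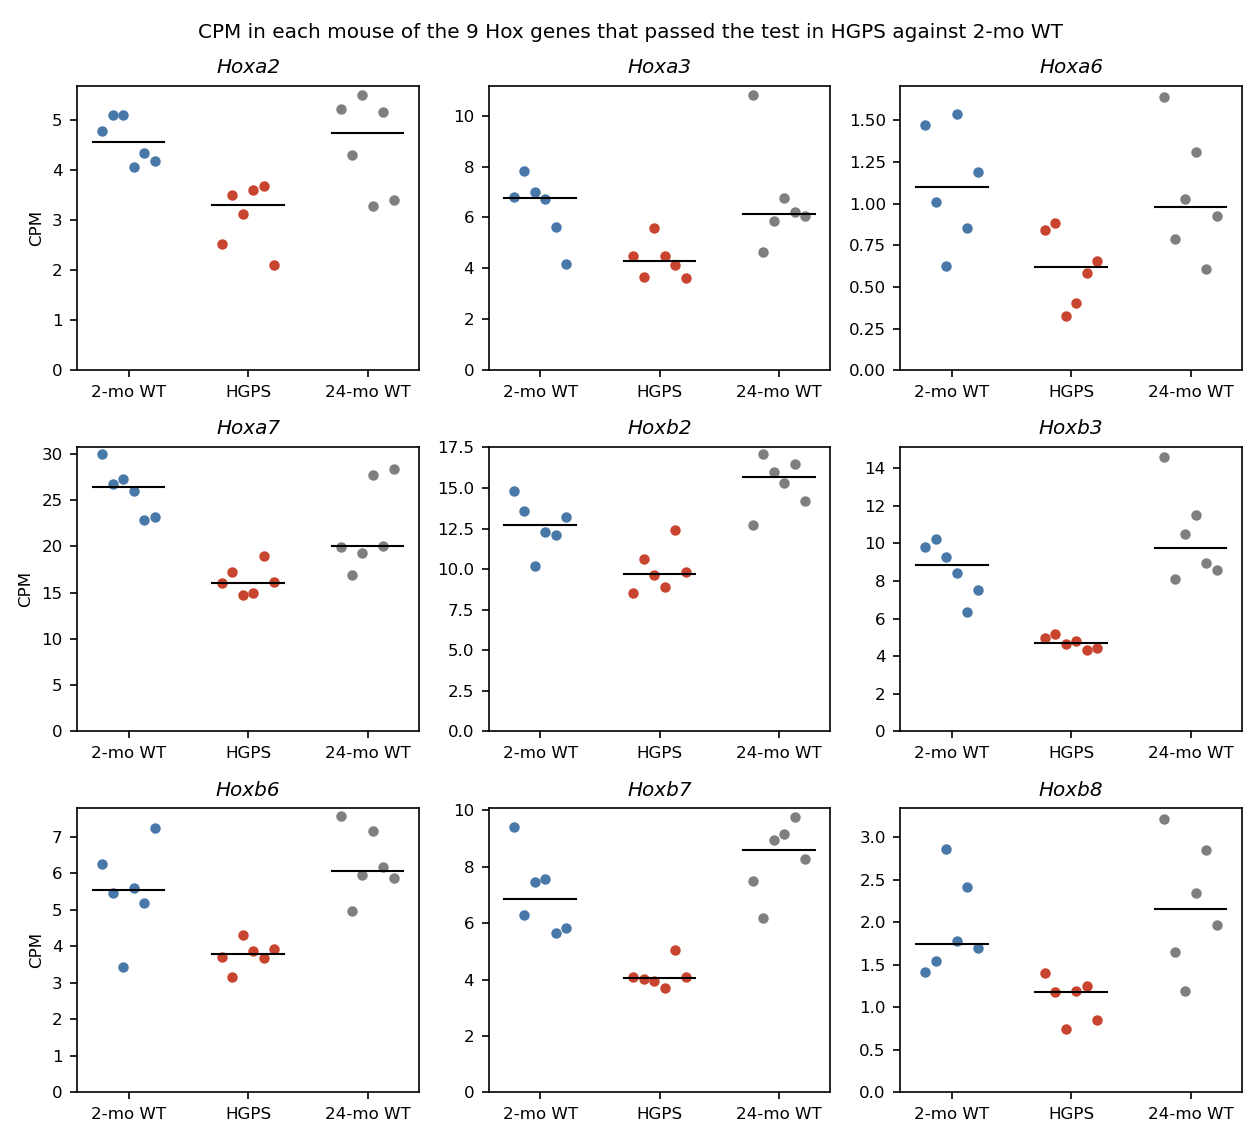
Level in CPM of the 9 Hox genes lower in HGPS than in 2-mo WT, for each of the 18 mice (points), with the median of each group (line). HGPS and 2-mo WT mice do not overlap for Hoxa2, Hoxa7, Hoxb3, Hoxb7 and Hoxb8, and overlap for the other 4 genes.

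Markers of other and of the same cell types moved with this comparison. The score of a cell type is the mean log2 CPM of its tested markers. The smooth muscle score (8 of 8 markers tested) was 10.05 to 10.44 in HGPS and 10.59 to 10.89 in 2-mo WT, without overlap, and 6 of the 8 markers were lower. Myh11, the smooth muscle myosin, had a log2 fold change of −1.17 and Acta2, the smooth muscle actin, of −0.60, whereas Tagln was at −0.00. The fibroblast score was 8.50 to 9.01 against 8.97 to 9.19, ranges that overlapped, with 3 of its 8 markers lower, 0 higher and 5 that did not pass. The brown fat score was 4.67 to 6.64 against 1.34 to 5.02, with all 8 markers higher in HGPS, and the macrophage score was 5.80 to 6.46 against 4.92 to 5.47, with all 8 higher. The white fat score differed by 1.27, with ranges that overlapped (5.99 to 7.50 against 4.70 to 6.53). Of its 8 markers 6 were higher, 1 was lower (Plin4, log2 fold change −0.45) and 1 did not pass. The neuron score, from 3 of 8 markers, differed by 1.02, and the mesothelium score by 1.90 with none of its 6 tested markers called. The mesothelium scores of the 2 groups overlapped (0.65 to 1.97 in HGPS, −2.39 to 2.31 in 2-mo WT). The part of these cell types in the Hox difference was not tested, since Hox levels per cell type were not measured. All 8 smooth muscle and all 8 endothelial markers passed the count filter in these aortas, and no lung epithelium marker did.

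When the smooth muscle and fibroblast scores were put into the fit as covariates, none of the 22 Hox genes was called, and 0.217% of all tested genes were. The standard errors were 2.4 times as large in the median gene, and the smooth muscle score itself separates the 2 groups without overlap. The fold changes of the 9 called genes stayed below 0 except that of Hoxb8, which turned to 0.19 (adjusted p = 0.954). Among genes that had not passed, Hoxb5 turned from −0.20 to 0.43, Hoxc5 from 0.34 to −0.36 and Hoxc8 from 0.25 to −0.47, and the median of the 22 was −0.47. With the brown fat and skeletal muscle scores as covariates, 6 Hox genes were called and 20.6% of all genes. Here the standard errors were 1.47 times as large in the median Hox gene. The skeletal muscle score rested on 3 of 8 markers, of which Ckm was lower in HGPS (log2 fold change −1.08), Tnnt3 higher (2.00) and Acta1 did not pass. With the 3 HGPS mice of sample numbers 48 to 50 only, 5 Hox genes were called, where 26.4% of all genes were, and with the other 3 only, 6 were called, where 37.6% of all genes were. For the former, Hoxb3 (adjusted p = 0.00276), Hoxa7 (adjusted p = 0.0071) and Hoxb7 (adjusted p = 0.0107) were among the 5.

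**Figure D4:**
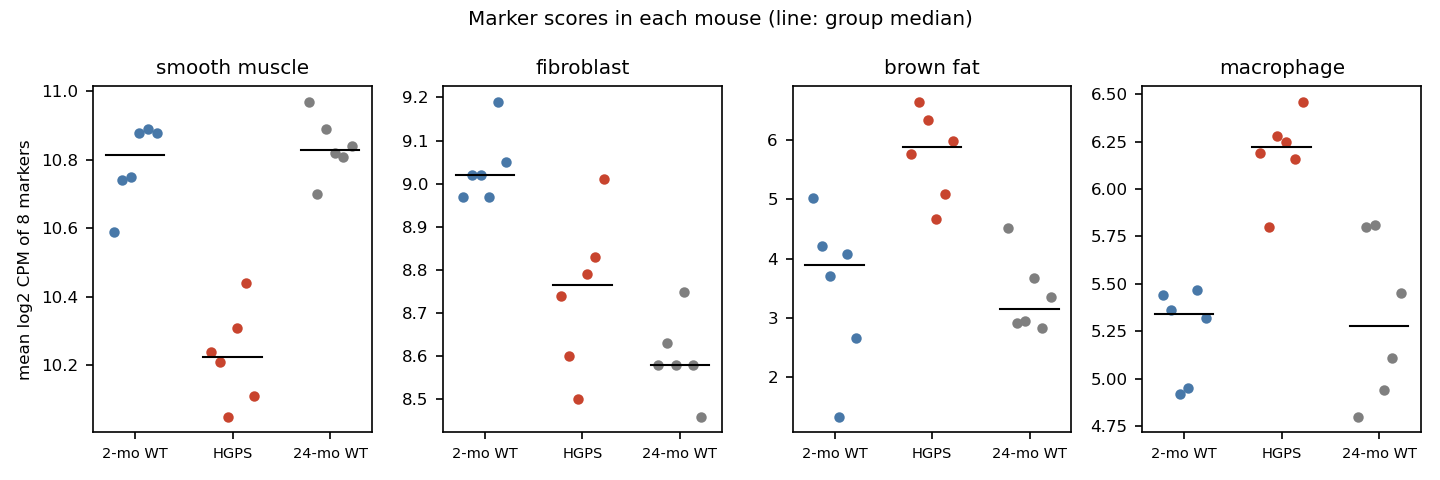
Marker score of smooth muscle, fibroblasts, brown fat and macrophages (mean log2 CPM) for every mouse (points) with the group median (line). HGPS mice have a lower smooth muscle score than all wild-type mice, and brown fat scores that are higher than those of all 24-mo WT mice.

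The comparison of 24-mo WT with 2-mo WT asks what age changes in the wild type, and it called no Hox gene. None of the 22 tested genes passed in edgeR's quasi-likelihood test (0%, against 11.7% of all genes, 5.38% lower and 6.29% higher), and DESeq2 called 0 as well. At an unadjusted p under 0.05 there were 2 Hox genes of the 22, where 25.1% of all genes had one. Hoxa10, the most posterior Hox gene tested, was at 0.273, 0.6 and 0.866 CPM in 24-mo WT and at 0.415, 1.09 and 1.88 CPM in 2-mo WT (log2 fold change −0.91, 95% interval −1.62 to −0.21, adjusted p = 0.0865). Hoxb2 was at 12.7, 15.7 and 17.1 CPM against 10.2, 12.8 and 14.8 CPM (0.26, 95% interval 0.05 to 0.48, adjusted p = 0.11). Both genes overlapped between the ages, as did the other 20, while 6.28% of all tested genes did not overlap. Hoxa10 passed when 2-mo WT replicate 2 was left out (log2 fold change −1.08, adjusted p = 0.0329).

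Fold changes with age lay between −0.91 and 0.28, with 13 above 0 and 9 below and a median of 0.07 (0.01 over all genes). The intervals say how large a change could have been missed. For Hoxa5 the interval was −0.22 to 0.32 around a log2 fold change of 0.05, for Hoxa7 it was −0.48 to 0.00 around −0.24, for Hoxb7 −0.04 to 0.53 around 0.24 and for Hoxb3 −0.02 to 0.57 around 0.27. Hoxc4, with low counts, had an interval of −0.89 to 0.63. The abundant genes thus had room for changes of well under 1 log2 unit, and the low ones for more. The fibroblast score was lower at 24 months without overlap (8.46 to 8.75 against 8.97 to 9.19), while the smooth muscle scores overlapped (10.70 to 10.97 against 10.59 to 10.89). Of the 8 fibroblast markers 4 were lower (Col1a1, Col1a2, Dpt and Pi16), none was higher and 4 did not pass. Of these, Dcn (log2 fold change 0.20) and Lum (0.16) lay above 0, and Pdgfra (−0.12) and Ly6a (−0.24) below.

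HGPS against 24-mo WT tests whether the 2 groups that were each set against 2-mo WT differ from each other. Genotype, age and source of the mice change together here, and the comparison shares its HGPS mice with the first and its 24-mo WT mice with the second. Lower levels in HGPS were called for 12 of the 22 Hox genes and higher levels for none (54.5%, against 47.3% of all genes in either direction and 23.6% in the lower one, with 23.8% in the higher one). They were 6 of 9 in Hoxa, 6 of 8 in Hoxb, 0 of 4 in Hoxc and 0 of 1 in Hoxd, and the median log2 fold change of the 22 was −0.40 (−0.01 over all genes).

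Hoxb genes led this comparison. Hoxb3 was at 8.11, 9.72 and 14.6 CPM in 24-mo WT, above every HGPS mouse, with a log2 fold change of −1.14 (SE 0.14, adjusted p = 3.55e-06). Hoxb7 was at 6.17, 8.61 and 9.78 CPM in 24-mo WT, and the HGPS level was 0.499 times as high (SE 0.14 on the log2 scale, adjusted p = 1.03e-05). For Hoxb2 the log2 fold change was −0.61 (SE 0.10, adjusted p = 8.94e-05), and for Hoxb6, at 4.95, 6.05 and 7.56 CPM in 24-mo WT, −0.73 (SE 0.15, adjusted p = 0.000519). These 4 genes were the only Hox genes whose HGPS and 24-mo WT mice did not overlap, a pattern that 11.3% of all tested genes showed in the lower direction. Hoxb8 (24-mo WT 1.19, 2.16 and 3.22 CPM) was at 0.501 times that level in HGPS (SE 0.25 on the log2 scale, adjusted p = 0.00296), and Hoxb4 (4.25, 5.17 and 6.64 CPM) had a log2 fold change of −0.37 (adjusted p = 0.0384).

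In Hoxa the 6 genes called were Hoxa2 to Hoxa7. Hoxa7 was at 16.9, 20 and 28.4 CPM in 24-mo WT, between the other groups and overlapping both, with a log2 fold change of −0.43 (SE 0.12, adjusted p = 0.00505) for HGPS. Hoxa3 (4.66, 6.13 and 10.8 CPM in 24-mo WT) had −0.64 (adjusted p = 0.00748), Hoxa2 (3.27, 4.73 and 5.5 CPM) −0.53 (adjusted p = 0.0115), Hoxa4 (2.3, 2.74 and 4.28 CPM) −0.64 (adjusted p = 0.0178), Hoxa5 (8.09, 9.58 and 12.9 CPM) −0.34 (adjusted p = 0.039) and Hoxa6 (0.611, 0.975 and 1.64 CPM) −0.78 (adjusted p = 0.041). Hoxa10 had a log2 fold change of 0.50 (adjusted p = 0.235).
Leaving out 1 mouse at a time ended the call of Hoxa4 once (without 24-mo WT replicate 5, adjusted p = 0.0537) and the calls of Hoxa5, Hoxa6 and Hoxb4 in 7 of 12 refits each (adjusted p up to 0.107, 0.112 and 0.103). In the fit with smooth muscle and fibroblast scores no Hox gene was called (0.684% of all genes were) and the fold change of Hoxa2 turned to 0.13 (adjusted p = 0.952). The smooth muscle score was lower in HGPS than in 24-mo WT by 0.61 and the brown fat score higher by 2.37, both without overlap. The macrophage score was higher by 0.87, with 7 of 8 markers higher, and the white fat score by 0.94, with 6 of 8 higher and 2 lower. The part of these cell types in the Hox values was not tested.

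**Figure D5:**
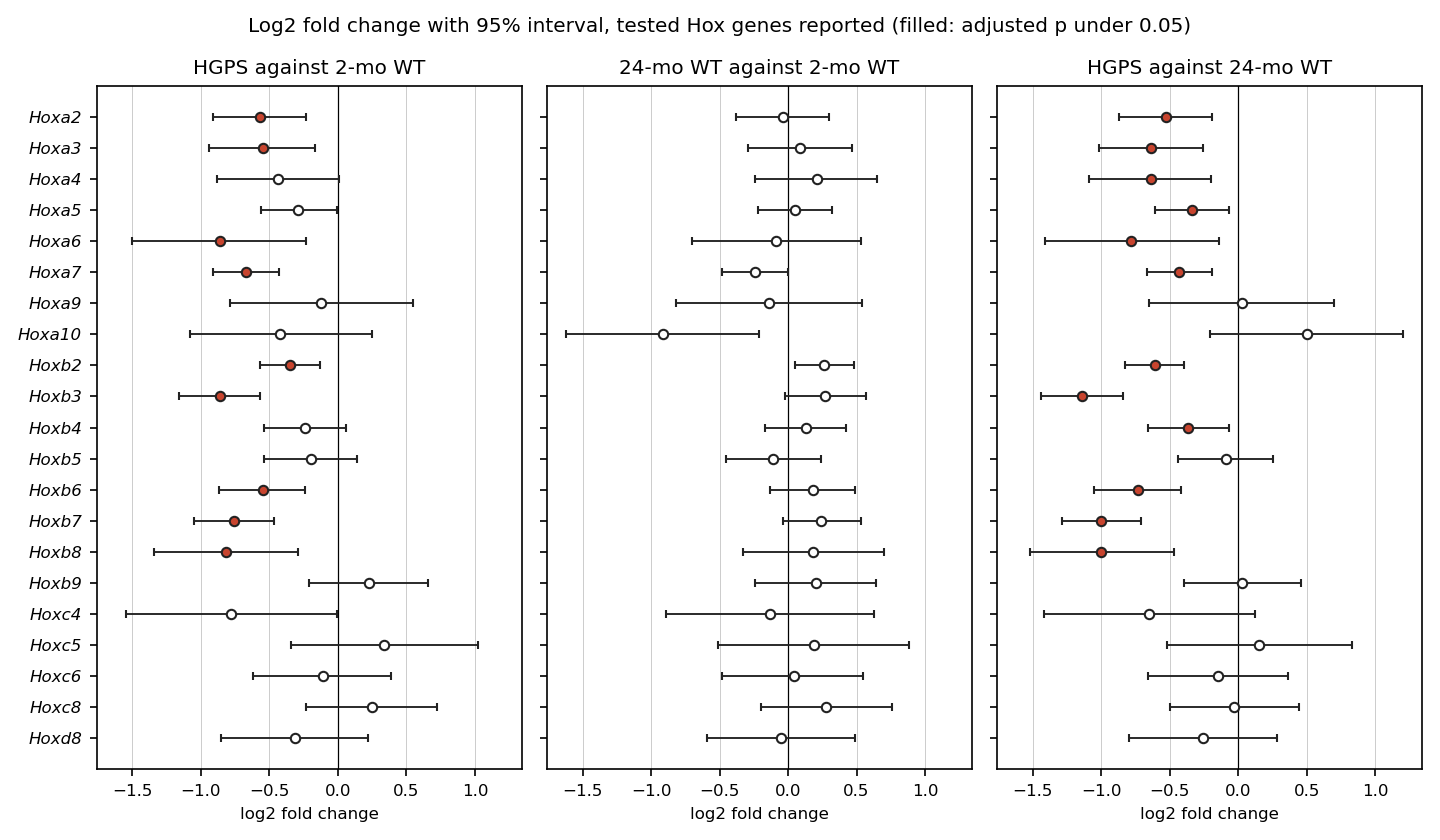
Log2 fold change with its 95% interval for the tested Hox genes reported, in the 3 comparisons (filled points: adjusted p under 0.05). Filled points lie below 0 in both HGPS comparisons, 9 and 12 of them, and the comparison of 24-mo with 2-mo WT has none.

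The 8 genes that remained called in every refit without 1 mouse were the same in both HGPS comparisons: Hoxa2, Hoxa3, Hoxa7, Hoxb2, Hoxb3, Hoxb6, Hoxb7 and Hoxb8. Both comparisons use the same HGPS mice, so this sameness is no independent support. At the cut-offs used in the study, at least 1.5-fold and an adjusted p under 0.001, 3 Hox genes passed against 2-mo WT (Hoxb3, Hoxa7 and Hoxb7, background 9.5% of all genes, 4.23% in the lower direction) and 4 against 24-mo WT (Hoxb2, Hoxb3, Hoxb6 and Hoxb7, background 12.1%, 6.11% in the lower direction).

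The cofactors of the TALE class, which bind DNA beside Hox proteins, moved in both directions. Of 13 tested TALE and TALE-binding genes, 8 were lower and 2 higher than in 2-mo WT and 3 did not pass (median log2 fold change −0.25, where 21.2% of all genes were lower and 22% higher). Pbxip1, a Pbx-binding protein, was at 461 ± 34.7 CPM in HGPS and 832 ± 74.3 in 2-mo WT (mean ± SD, n = 6, log2 fold change −0.85, SE 0.07, adjusted p = 6.28e-08). Meis1, a direct Hox partner, was at 25.8 ± 3.9 against 39.3 ± 2.01 CPM (−0.61, SE 0.09, adjusted p = 2.21e-05), and Pbx2 had a log2 fold change of −0.44 (adjusted p = 1.54e-05). Tgif1, a TALE repressor, was higher, at 19.2 ± 3.13 against 8.72 ± 0.883 CPM (1.14, SE 0.10, adjusted p = 2.25e-07). With age 2 of the 13 were higher and 1 lower, where 6.29% of all genes were higher and 5.38% lower. Mkx, a tendon transcription factor of this class, was at 5.3 ± 1.39 CPM in 24-mo WT and 1.11 ± 0.263 in 2-mo WT (2.27, SE 0.23, adjusted p = 1.73e-06), Irx3 rose as well (1.30, adjusted p = 0.00985) and Pknox1 fell (−0.20, adjusted p = 0.0425). Against 24-mo WT, 9 were lower in HGPS and 1 higher (23.6% and 23.8% of all genes), and Mkx had the largest of these differences (−3.16, SE 0.24, adjusted p = 9.24e-09).

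Of 5 tested noncoding RNAs of the clusters, 2 were lower in HGPS than in 2-mo WT and 3 did not pass. Over all genes 43.2% were called, so this share was near that background. Hoxaas2, which overlaps Hoxa3 on the opposite strand, was at 1.31 ± 0.314 CPM in HGPS and 2.84 ± 0.423 in 2-mo WT (log2 fold change −1.11, SE 0.25, adjusted p = 0.0016), and Hoxb5os was at 0.53 ± 0.174 against 0.985 ± 0.251 CPM (−0.91, SE 0.28, adjusted p = 0.0117). Hotairm1, Hoxb3os and Hoxaas3 did not pass, with log2 fold changes of 0.49 (adjusted p = 0.0841), 0.49 (adjusted p = 0.162) and 0.39 (adjusted p = 0.31). Hoxb3os thus had a fold change above 0 while that of Hoxb3, which it overlaps, was below. None of the 5 passed with age, where 11.7% of all genes were called. Against 24-mo WT, Hotairm1, a regulator of the anterior Hoxa genes, was higher in HGPS (0.58, adjusted p = 0.0368) while Hoxb5os was lower (−0.98, adjusted p = 0.00619). The other 3 did not pass, and 47.3% of all genes were called in that comparison. Hotair, a noncoding RNA of the posterior Hoxc cluster, and the microRNA genes Mir10a, Mir10b, Mir196a-1, Mir196a-2, Mir196b and Mir615 had 0 counts in all mice, and the library was not made to hold small RNA.

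Among 28 tested Polycomb and Trithorax genes, which keep Hox genes off or on, 10 were lower in HGPS than in 2-mo WT, 2 higher and 16 did not pass (median log2 fold change −0.20), where 43.2% of all genes were called and 21.2% were lower. Cbx7, the chromodomain subunit that reads the Polycomb mark, was at 24.2 ± 2.79 CPM against 43.2 ± 4.8 (−0.84, SE 0.08, adjusted p = 5.18e-07). Ezh1, a methyltransferase that writes the mark, was at 48.4 ± 5.21 against 71.4 ± 2.46 CPM (−0.56, SE 0.07, adjusted p = 3.53e-06), and Cbx6 (−0.61, adjusted p = 3.49e-05) and Psip1, a Trithorax cofactor (−0.46, adjusted p = 0.000153), were lower too. With age 2 of the 28 rose and 1 fell, where 11.7% of all genes were called, a share near that background. Ezh2, the other methyltransferase, was at 2.22 CPM in 24-mo WT and 5.31 in 2-mo WT (−1.27, SE 0.20, adjusted p = 0.000211), and Bmi1 (0.38, adjusted p = 0.00155) and Cbx7 (0.37, adjusted p = 0.00487) were higher. Cbx7 was thus lower in HGPS against both ages of wild type, with a log2 fold change of −1.21 (adjusted p = 2.74e-09) against 24-mo WT, where 10 of the 28 were lower and 2 higher and 47.3% of all genes were called.

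The retinoic acid genes tested were enzymes, receptors and binding proteins. Of 13 tested, 6 were lower, 2 higher and 5 did not pass against 2-mo WT (median −0.20), where 21.2% of all genes were lower and 22% higher. Against 24-mo WT 4 were lower and 2 higher, where 23.6% of all genes were lower and 23.8% higher. Dhrs3, a retinal reductase, had a log2 fold change of −0.57 (SE 0.11, adjusted p = 0.000284), the receptor Rarg −0.40 (adjusted p = 0.00154) and Cyp26b1, which breaks retinoic acid down, −0.81 (adjusted p = 0.00164). Aldh1a2, which makes retinoic acid and is also a gene of mesothelium, was higher, at 3.26 CPM against 0.804 (2.05, SE 0.46, adjusted p = 0.00154). The mean mesothelium score was higher by 1.90, but the HGPS range (0.65 to 1.97) lay within that of 2-mo WT (−2.39 to 2.31). The part of that tissue in the Aldh1a2 level was not tested. With age none of the 13 passed, where 11.7% of all genes were called. The Cdx genes, which activate the middle and posterior Hox genes in the embryo, were at or near 0, with Cdx2 and Cdx4 at 0 and Cdx1 at 3 counts in all mice.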

How the data were processed

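Per the labels and the study's methods, RNA of 18 aortas was sequenced on a HiSeq4000, and the authors deposited estimated counts per gene, made with salmon and summarised by gene (GENCODE M23, GRCm38) as whole numbers. The labels' processing notes also name Bowtie 0.12.2, whose role is not given in the sources used here. The counts were tested as deposited with edgeR 4.0.16 in R 4.3.3 (TMM, quasi-likelihood test, a minimum of 10 counts in 6 or more mice, all 3 groups in 1 fit with 15 residual degrees of freedom), with Benjamini-Hochberg adjustment over 15210 genes, and with DESeq2 1.42.0 as an alternative. The steps were checked on simulated counts. CPM are counts per megacount of the TMM library size, and log2 CPM a prior count of 2. Gene lengths, positions and sequences came from GENCODE M21 on the same assembly, which held 54107 of the 54281 gene IDs. Columns were taken to mice by name. Each mouse is a separate animal, and none of the 45 pairs of libraries within a group agreed within sampling noise. Pairs across groups were not examined. The Hox genes, lists and tests were chosen with earlier results of these data known. The tested Hox genes are named, except for an item that is not reported here, and from each list at most 4 genes per comparison, by adjusted p, with Hoxaas3 added so that all tested antisense genes appear, and Myh11, Acta2 and Tagln chosen after their values were seen. Replicate numbers of different groups do not pair mice, which are different animals (correlations of equal numbers −0.162 to 0.172).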

Additional observations from a re-analysis of the deposited data

Results flagged for a closer look

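In 4 of the 66 combinations of a tested Hox gene and a group of mice, the extreme mouse lay far from the other 5 (its gap to the nearest, over the whole range, was above Dixon's 95% critical value), which chance gives in about 1 of 20 groups. Hoxa3 was at 10.8 CPM in 24-mo WT replicate 1, where the others were at 4.66 to 6.76. Hoxb7 was at 5.05 CPM in HGPS replicate 5, where the others were at 3.69 to 4.09, and this mouse is the one nearest to the wild-type range. Hoxc4 was at 0.251 CPM in the same mouse, where the others were at 0.696 to 0.84. Hoxc6 was at 1.02 CPM in 24-mo WT replicate 5, where the others were at 2.73 to 3.65. Hoxa3 and Hoxb7 kept their calls in both HGPS comparisons when any 1 mouse was left out.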

How the results depend on the processing

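Under DESeq2, RLE or upper-quartile factors the Hox genes called were 9, 0 and 12 for HGPS against 2-mo WT, 24-mo against 2-mo WT and HGPS against 24-mo WT, as reported, and with the replicate numbers as a block they were 9, 0 and 11 (Hoxb4 lost in the last, adjusted p = 0.0515), with no other call changed by the block. HGPS against 2-mo WT went from 9 to 5 without the HGPS mice of sample numbers 19 to 23 (26.4% of all genes called), to 3 at the cut-offs of the study and to 0 with smooth muscle and fibroblast scores as covariates, and leaving out 1 mouse gave 8 to 10. HGPS against 24-mo WT went from 12 to 7 without either set of HGPS sample numbers (34.1% and 40.3% of all genes called), to 6 with brown fat and skeletal muscle scores (23.4%), to 0 with smooth muscle and fibroblast scores, to 4 at the cut-offs of the study, and to 9 to 12 without 1 mouse. Leaving out 1 mouse gave 0 to 1 for 24-mo against 2-mo WT. Hoxb8 against 2-mo WT (0.19) and Hoxa2 against 24-mo WT (0.13) turned sign in the fit with smooth muscle and fibroblast scores. A stricter rule gives fewer calls by construction. For the other changes, also those with fewer mice, the cause was not tested. With a minimum of 50 counts in 6 or more mice, 12 Hox genes could be tested. Of 541 refits of called genes, 455 kept direction and call, 84 lost the call and 2 turned sign. Genes under about 1 CPM, such as Hoxa6, Hoxa10 and Hoxc4, are limited by depth.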

Other observations

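Genes beside the clusters moved in both directions. Of 6 tested neighbours, 3 were higher, 2 lower and 1 did not pass in HGPS against 2-mo WT. Over all genes 22% were higher and 21.2% lower, so calls in both directions among 6 genes are not read as a result about the clusters. Calcoco1, next to Hoxc, was lower (46.5 ± 2.24 CPM against 75.6 ± 9.72, log2 fold change −0.70, adjusted p = 1.62e-06), although none of the tested Hoxc genes passed, and Mtx2, next to Hoxd, was higher (0.56, adjusted p = 0.00159). Hibadh, next to Hoxa, was higher as well (0.40, adjusted p = 0.00309), where the called Hoxa genes were lower. With age, Skap2, next to Hoxa, rose (0.24, adjusted p = 0.00958) and the other 5 did not pass, where 11.7% of all genes were called.

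Other transcription factors of regional identity were examined beside the Hox genes. Of 18 tested, 7 were lower and 3 higher than in 2-mo WT and 8 did not pass, with a median log2 fold change of −0.29 (21.2% of all genes were lower and 22% higher), and against 24-mo WT 9 were lower and 1 higher (23.6% and 23.8% of all genes). Foxf1, a factor of visceral mesoderm, was at 2.85 CPM in HGPS and 8.86 in 2-mo WT (−1.63, SE 0.19, adjusted p = 2.53e-06). Gata6 (−0.56, adjusted p = 2.43e-05) and Foxc2 (−0.58, adjusted p = 5.62e-05) were lower. With age 2 of the 18 were higher, Meox1 (1.21, adjusted p = 0.00148) and Tbx2 (0.76, adjusted p = 0.0255), and none was lower. Over all genes 11.7% were called with age, so the share was near that background. The regional factors Hand1, Pitx1, En1 and Emx2 were at 0 counts in all mice. All p-values are from edgeR's quasi-likelihood test.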
